A study of Sus scrofa domesticus with 4 samples.

Results

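The macrophage markers and complement genes C1QB, C5AR1, VSIG4, AIF1, CD14, CD163 and CFB were followed in pig myometrium, the muscular wall of the uterus, cultured with or without orexin A (OXA), a hypothalamic neuropeptide that also acts on reproductive tissues. The genes were taken by name, and every non-control probe designed against a RefSeq transcript of any of them was used. This gave 17 probes of 7 genes, out of 43603 non-control probes and 3029 genes that could be named. C1QB and CFB had 1 probe each, C5AR1, AIF1 and CD14 had 2, CD163 had 4 and VSIG4 had 5. The transcripts in the array design were NM_001244283 (C1QB), NM_001244215 (C5AR1), NM_001244102 (VSIG4), NM_001129950 (AIF1), NM_001097445 (CD14), NM_213976 (CD163) and NM_001101824 (CFB).

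Macrophages are resident immune cells of the uterus that clear debris and sense complement, a cascade of plasma and tissue proteins that tags particles and cells. C1q, built from the products of C1QA, C1QB and C1QC, starts the classical pathway and is made largely by macrophages. Complement factor B, encoded by CFB, carries the protease part of the alternative pathway C3 convertase and is made by liver and by many epithelial and stromal cells. Receptors then read the products: VSIG4 binds C3b and iC3b on tissue macrophages, and C5AR1 binds the C5a fragment on myeloid cells. AIF1 is an actin-binding protein of macrophages, CD14 is the co-receptor that hands lipopolysaccharide to Toll-like receptor 4, and CD163 is the haemoglobin-haptoglobin scavenger receptor.

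The tissue came from 4 pregnant Large White x Polish Landrace gilts, aged 7 to 8 months and weighing 120 to 130 kg, on days 15 to 16 of gestation. Explants of about 100 mg from the middle of the uterine horns, 3 mm thick, were preincubated for 2 h. They were then kept for 24 h either without treatment or with OXA, whose dose is 10 nM in the sample labels and 10 µM in the design text. Each of 4 two-colour Agilent arrays carried RNA of OXA-treated explants in 1 dye and RNA of non-treated explants in the other. Per the labels, Cy5 marked OXA on arrays 1 and 3, while arrays 2 and 4 had the dyes swapped. The protocol text words OXA as Cy5 throughout, and values under that wording are given further on. The arrays are taken as 4 replicates, although no label states that an array compared tissue of a single gilt. Explants hold every cell type of the tissue, so in all that follows more cells of a type and more RNA per cell cannot be told apart.

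The arrays did not form a concordant set, and array 2 stood furthest apart. Over the 19506 tested probes, which are not independent replicates, its log2 ratios correlated at r = -0.59 with those of array 1 and at r = -0.38 with those of array 4, the array of the same dye orientation. Its correlation with array 3 was r = -0.30. Array 1 correlated with array 4 at r = 0.62 and with array 3 at r = 0.23, while arrays 3 and 4 were at r = -0.06. The direction given by the labels was kept, since they state the dyes array by array and the samples could differ in response, and values without array 2 or with its direction turned are given below. All 6 smooth muscle markers named on the array (ACTA2, CNN1, DES, MYLK, SMTN and TPM2) were bright enough to be tested. Their summed processed signal was 222316 to 652953 in the 8 channels, a sum over probes whose brightness is not comparable. Of the markers on the array, 5 of 6 for uterine epithelium, 5 of 5 endothelial and 4 of 4 fibroblast markers were tested too. Being tested therefore does not tell myometrium from other tissue. None of 8 T cell markers on the array was bright enough to be tested.

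A processed signal is the brightness of a spot after background subtraction and dye normalization by the scanner software, in arbitrary units that can be compared between samples for a probe but not between probes. Signals were not scaled between arrays, where the 75th percentile of all probes was 273.4 to 372.2 over the 8 channels. Each treatment was in Cy5 on some arrays and in Cy3 on others, so a span over arrays also holds dye differences. Of the 17 probes, 12 were tested, for which either treatment had to be well above background on 3 arrays or more. Every gene had at least 1 tested probe, and the brightest probe, which stands for the gene below, was well above background in all 8 channels for each gene.

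**Figure D1:**
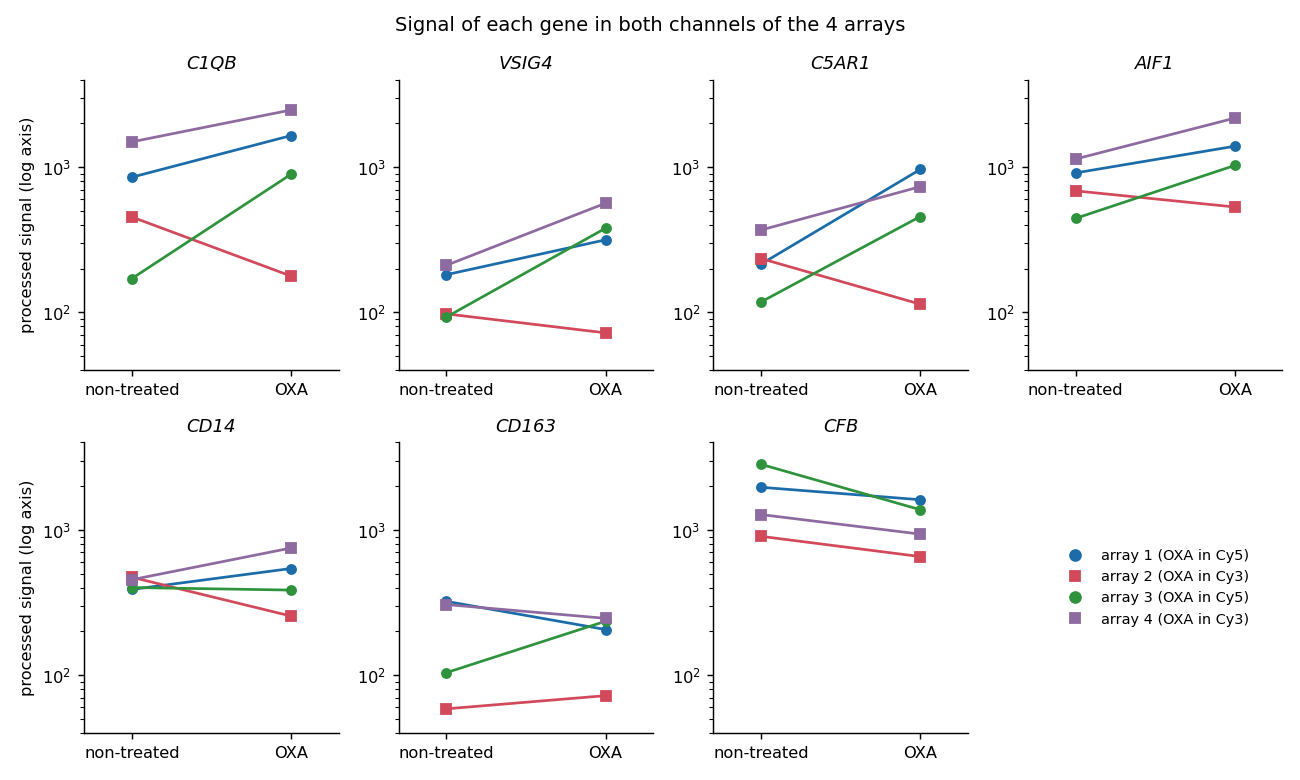
Processed signal (log axis, arbitrary units) of the brightest probe of each gene in the non-treated and the OXA channel, with a line joining both channels of an array; circles mark arrays with OXA in Cy5 and squares those with OXA in Cy3. CFB slopes down on all 4 arrays, while C1QB, VSIG4, C5AR1 and AIF1 slope up on arrays 1, 3 and 4 and down on array 2.

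For C1QB, the signal in non-treated tissue was 853, 454, 171 and 1494 on arrays 1 to 4, and with OXA it was 1650, 178, 893 and 2476. OXA-treated tissue was thus brighter on 3 arrays and dimmer on array 2, and the groups overlapped. Non-treated tissue alone spanned 8.75-fold between arrays, more than the 5.23-fold difference within array 3, the widest within an array. The log2 ratios of OXA over non-treated were 0.95, -1.35, 2.39 and 0.73, with a mean of 0.68 ± 1.54 (SD, n = 4), or 1.60-fold. On array 3, 0.128% of tested probes had a higher ratio than C1QB, while on array 2 its ratio was lower than that of 97.7% of them.

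C1QB forms a protein with C1QA and C1QC, which lie next to it on the same chromosome in the RefSeq table and have 1 probe each. Both followed it array by array. C1QA had log2 ratios of 0.89, -1.64, 2.13 and 0.71, and C1QC had 1.10, -1.90, 3.18 and 1.19. The sign was the same for all 3 chains on each array, positive on arrays 1, 3 and 4 and negative on array 2. C1QA was also the named gene with the smallest Euclidean distance to C1QB over the 4 log2 ratios (0.40). The next were CCR1, a chemokine receptor of myeloid cells (0.76), IL10, an anti-inflammatory cytokine (0.86), HPX, the haem-binding protein hemopexin (0.87), and AMBN, an enamel matrix protein (0.90).

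The complement receptors had the signs of C1QB on each array, with larger means and a different order of arrays. For VSIG4, non-treated signals were 182, 97.7, 93.0 and 211 and OXA signals 316, 72.3, 380 and 565 on arrays 1 to 4. The OXA channel of array 4 was the brightest and that of array 2 the dimmest of all 8. The log2 ratios were 0.80, -0.43, 2.03 and 1.42, a mean of 0.95 ± 1.05 (SD, n = 4). The other tested VSIG4 probes had means of 0.89 and 0.78, but both were dim and were tested only through their OXA channels, so their means give no support to that of the brightest probe. Without treatment they were well above background on 2 arrays and on 1 array, and with OXA on 3 arrays each. The largest ratio, 3.49 on array 3, set a signal of 128 with OXA against such a dim spot at 11.4. The remaining 2 VSIG4 probes were too dim to be tested.

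For C5AR1, non-treated signals were 215, 235, 118 and 369 and OXA signals 964, 114, 457 and 734. The non-treated channels spanned 3.14-fold and the OXA channels 8.46-fold, from below the lowest non-treated channel to above the highest. Each span mixes both dyes and unscaled arrays, so the spans do not measure variation of the tissue alone. The log2 ratios were 2.16, -1.05, 1.96 and 0.99, with a mean of 1.02 ± 1.47 (SD, n = 4), or 2.02-fold. This was the highest mean among the 7 genes. The second C5AR1 probe was well above background only in the non-treated channel of array 4, where 61.1% of all probes were, against 39.9% to 49.7% in the other 7 channels.

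AIF1 had non-treated signals of 913, 687, 444 and 1138 and OXA signals of 1394, 532, 1028 and 2176. Its log2 ratios of 0.61, -0.37, 1.21 and 0.94 had a mean of 0.60 ± 0.69 (SD, n = 4). The second AIF1 probe had the same signs, with 0.58, -0.79, 1.49 and 0.46. C1QB, VSIG4, C5AR1 and AIF1 were therefore positive on arrays 1, 3 and 4 and negative on array 2. Of all tested probes, 17.7% had these signs, the count of a pattern that was defined after seeing the members' values.

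CD14 and CD163 did not share these signs. CD14 was at 389, 472, 401 and 454 without treatment, a 1.21-fold span, and at 542, 255, 385 and 750 with OXA. Its log2 ratios were 0.48, -0.89, -0.06 and 0.73, with a mean of 0.07 ± 0.71 (SD, n = 4). The dimmer CD14 probe had a mean of 0.43, but it was tested only through its OXA channels, being well above background on 3 arrays with OXA and on 1 without, so this mean is no support either. For CD163, signals were 322, 58.6, 104 and 306 without treatment and 206, 72.2, 235 and 246 with OXA. Its log2 ratios of -0.64, 0.30, 1.18 and -0.32 had a mean of 0.13 ± 0.80 (SD, n = 4). CD163 was thus lower with OXA on arrays 1 and 4 and higher on arrays 2 and 3, so that on arrays 1, 2 and 4 it had the opposite sign to C1QB. The other tested CD163 probe gave the same signs, with -0.44, 0.11, 0.52 and -0.56, although neither channel of array 2 was well above background, and the remaining 2 CD163 probes were too dim to be tested.

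CFB was lower with OXA on every array. Its signals were 1965, 903, 2827 and 1275 without treatment and 1613, 655, 1378 and 935 with OXA. The groups overlapped across arrays, and OXA was the lower channel within each. The log2 ratios were -0.29, -0.46, -1.04 and -0.45, with a mean of -0.56 ± 0.33 (SD, n = 4), or 0.679-fold. A ratio below 0 on all 4 arrays was found for 3.76% of tested probes and for 57 of 1985 named genes. The ratio of CFB minus the median ratio of the 6 macrophage markers was -0.99, -2.62 and -1.28 on arrays 1, 3 and 4 and 0.20 on array 2. The named genes nearest to CFB in their 4 ratios were HPS3 (distance 0.54), C3H2orf40 (0.56), FBXO32, a muscle ubiquitin ligase (0.60), API5, an apoptosis inhibitor (0.62), and ACVR2A, an activin receptor (0.64).

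**Figure D2:**
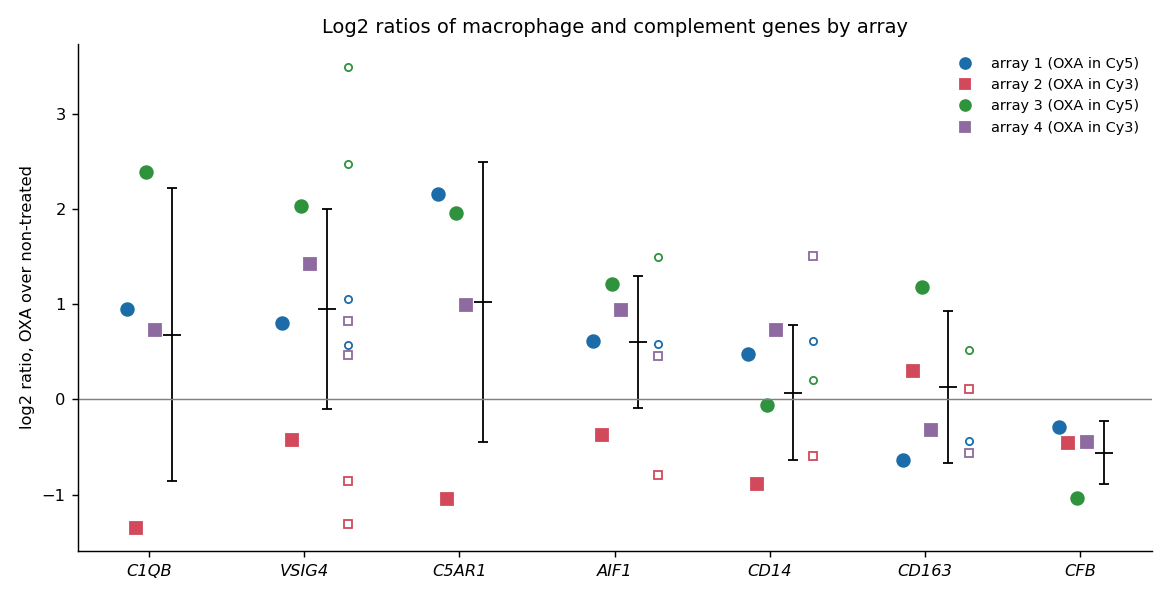
Log2 ratio of OXA over non-treated for each gene; filled symbols are the brightest probe on each array, open symbols the other tested probes, and the black bars the mean ± SD over 4 arrays. Array 2 (red squares) is below 0 for C1QB, VSIG4, C5AR1, AIF1 and CD14, and CFB is below 0 on all 4 arrays with a mean of -0.56.

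None of the 7 genes passed the test. The limma model, fitted over all tested probes, had a term for OXA and a term for dye bias, with Benjamini-Hochberg adjustment over every probe. It called 0 of 19506 probes (0%, lowest adjusted p = 0.998), and 237 probes (1.22%) had an unadjusted p under 0.05. Modelling the channels separately in limma gave 0 calls too, and 639 probes had an unadjusted p under 0.05. Among the 7 genes, C5AR1 had an unadjusted p of 0.0381 in limma (adjusted p = 0.998), with 3 of 4 arrays positive, and 0.831% of probes were under 0.05 in that direction. Its 95% interval for the log2 ratio was 0.08 to 1.96. The interval was -0.03 to 1.94 for VSIG4, -0.39 to 1.75 for C1QB, -0.19 to 1.39 for AIF1 and -1.23 to 0.11 for CFB. CD14 (-0.79 to 0.92) and CD163 (-0.78 to 1.04) had intervals centred near 0. The interval included 0 for every gene except C5AR1, and none was adjusted for the number of probes. With 4 arrays the intervals were wide, and any log2 ratio within them is compatible with the data. An exact two-sided sign test over 4 arrays cannot give a p below 0.125.

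The OXA ratio of several of these genes differed between the dye orientations. With OXA in Cy5, C5AR1 had a mean of 2.06 and with OXA in Cy3 a mean of -0.03; the corresponding means were 1.67 and -0.31 for C1QB and 1.41 and 0.49 for VSIG4. The dye term of C5AR1 had an unadjusted p of 0.0347 and that of C1QB 0.0645, with an adjusted p of 1 for each in limma. For VSIG4 the unadjusted p of the dye term was 0.299 in limma. Of all 19506 tested probes, 480 had an unadjusted p under 0.05 for the dye term in that fit, and 0 were called. Each orientation holds 2 arrays, array 2 among those with OXA in Cy3, so dye and array cannot be told apart here. CFB had similar means in both orientations, -0.66 and -0.45.

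Calls among these genes depended on array 2. Without array 2, limma gave log2 ratios of 1.53 for C5AR1 (adjusted p = 0.00302), 1.42 for VSIG4 (adjusted p = 0.00749) and 1.20 for C1QB (adjusted p = 0.0308), so that 3 of the 7 genes were called higher. In the same fit 1108 probes (5.68%) were called, 1.36% of probes as higher. Array 4 is then alone in its dye orientation and the spread comes from arrays 1 and 3 only. AIF1 had 0.92 (adjusted p = 0.124) and CD14 0.47 (adjusted p = 0.503) in that fit, CD163 had -0.02 and CFB -0.55 (adjusted p = 0.416). Over all alternatives the adjusted p ran from 0.00302 to 1 for C5AR1, from 0.00749 to 1 for VSIG4, from 0.0308 to 1 for C1QB and from 0.416 to 1 for CFB.

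With the direction of array 2 turned, 0 probes were called. C5AR1 then had 1.36 (adjusted p = 0.0919), VSIG4 1.25 (adjusted p = 0.0988), C1QB 1.15 (adjusted p = 0.102) and AIF1 0.83 (adjusted p = 0.12) in limma, each with an unadjusted p under 0.05, as had 9.67% of probes in the same direction. CFB had -0.37 under that reading. Turning array 2 also turned its dye orientation, which left array 4 alone in its own. Array 4 then weighed as much as the other arrays together, and the spread came from those others only. With OXA taken as Cy5 on all arrays, C5AR1 had 1.04, C1QB 0.99, VSIG4 0.46 and CFB -0.10, and dye and OXA cannot be told apart in that fit.

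**Figure D3:**
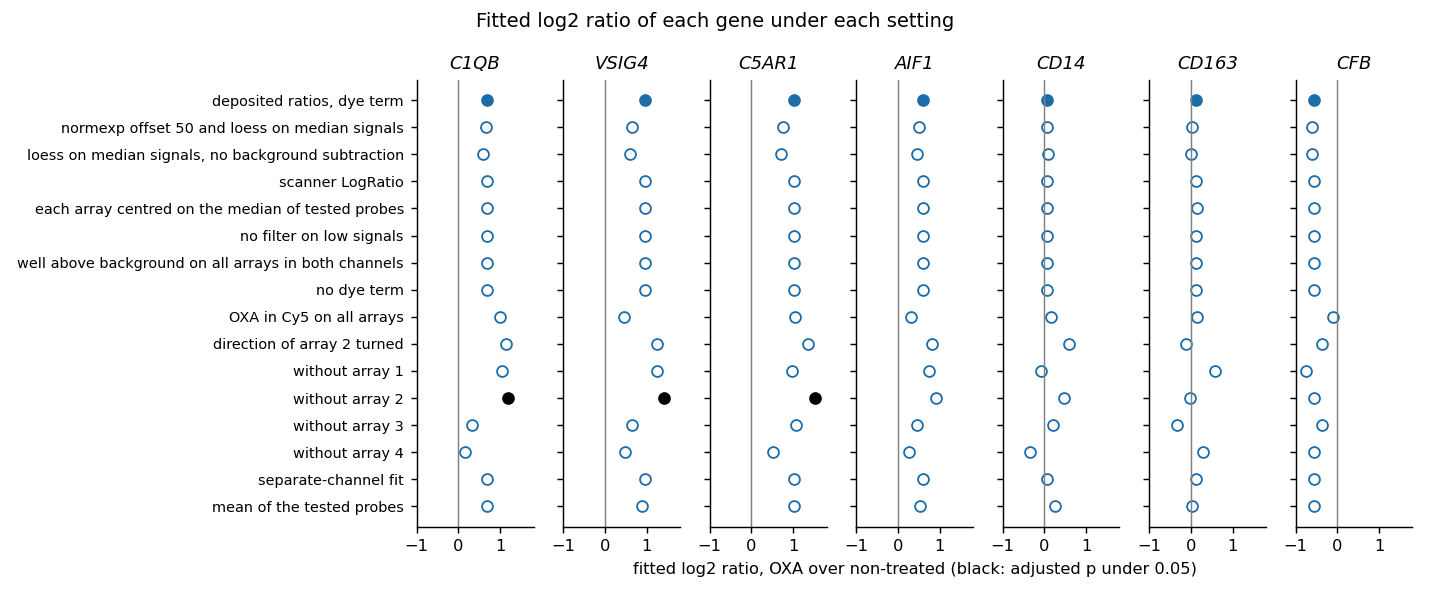
Fitted log2 ratio of OXA over non-treated for each gene (columns) under each setting (rows); the filled blue point is the fit to the deposited ratios and black points have an adjusted p under 0.05. The only black points are C1QB, VSIG4 and C5AR1 without array 2, at 1.20, 1.42 and 1.53.

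Other macrophage genes were described with a list of 25 markers, chosen with earlier results of these data known and holding 6 of the 7 genes above. Of these, 18 were named on the array and 14 were tested. By the sign of the mean, 13 were positive and 1 negative, and 0 passed the test (C5AR1 alone had an unadjusted p under 0.05). The negative marker was CD86, a T cell co-stimulator named for this value, at -0.10 ± 0.69 (SD, n = 4). For comparison, 1216 of 1985 named genes had a positive mean. The list medians were 0.63, -0.72, 1.21 and 0.73 on arrays 1 to 4, against 0.25, -0.22, 0.02 and 0.29 over all named genes, so that the medians of the named genes as a whole had the same signs. The 8 markers that are not among the 7 genes had medians of 0.63, -0.72, 1.11 and 0.63. Of these 8, the positive ones numbered 8, 0, 8 and 6 on arrays 1 to 4, against 1322, 663, 1047 and 1357 of the 1985 named genes. TYROBP, a signalling adaptor of myeloid receptors, had a mean of 0.43 ± 0.83, and FCER1G, the Fc receptor gamma chain, had 0.38 ± 0.68 (SD, n = 4). HMOX1, the haem-degrading enzyme, had 0.34 ± 0.45. MRC1, the mannose receptor of tissue macrophages, had log2 ratios of 0.29, -0.32, 1.93 and -0.29, with the sign of CD163 on arrays 3 and 4 and the opposite sign on arrays 1 and 2. The summed signal of the 14 markers was 9613 to 24103 with OXA and 8161 to 14533 without. These sums add probes whose brightness is not comparable, over both dyes and unscaled arrays. Their ranges do not pair the channels of an array.

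Of 40 complement genes, 30 were named on the array and 18 were tested, with 11 positive and 7 negative means and 0 calls. Of the 1985 named genes, 1216 had a positive and 769 a negative mean. The median of the fitted ratios was 0.11, against 0.08 over all named genes. Among these 18 genes, the C1q chains, VTN and the receptors C5AR1 and VSIG4 had the widest differences between arrays. C3, the central component on which factor B acts, had log2 ratios of 0.17, -0.15, -1.41 and -0.43, with a mean of -0.46 ± 0.68 (SD, n = 4), and its 5 probes averaged -0.46 to -0.30. Like CFB, it had its lowest ratio on array 3. Among regulators, SERPING1, the C1 inhibitor, had -0.35, -0.43, -0.46 and -0.17, although another of its 3 probes averaged 0.01. SERPING1 and CFB were joined by C1S, a C1 protease, and CD46, a membrane cofactor, as the 4 of 18 complement genes negative on all 4 arrays. Of all named genes, 57 of 1985 had these signs. C1S is named because of its values, and its other probe averaged 0.07. CD55, the decay-accelerating factor of C3 convertases, had a mean of 0.49 ± 0.80 (SD, n = 4). VTN, vitronectin, which inhibits the membrane attack complex, had 1.90, -1.44, 1.19 and 0.86, the signs of C1QB, from 1 tested probe of 6.

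**Figure D4:**
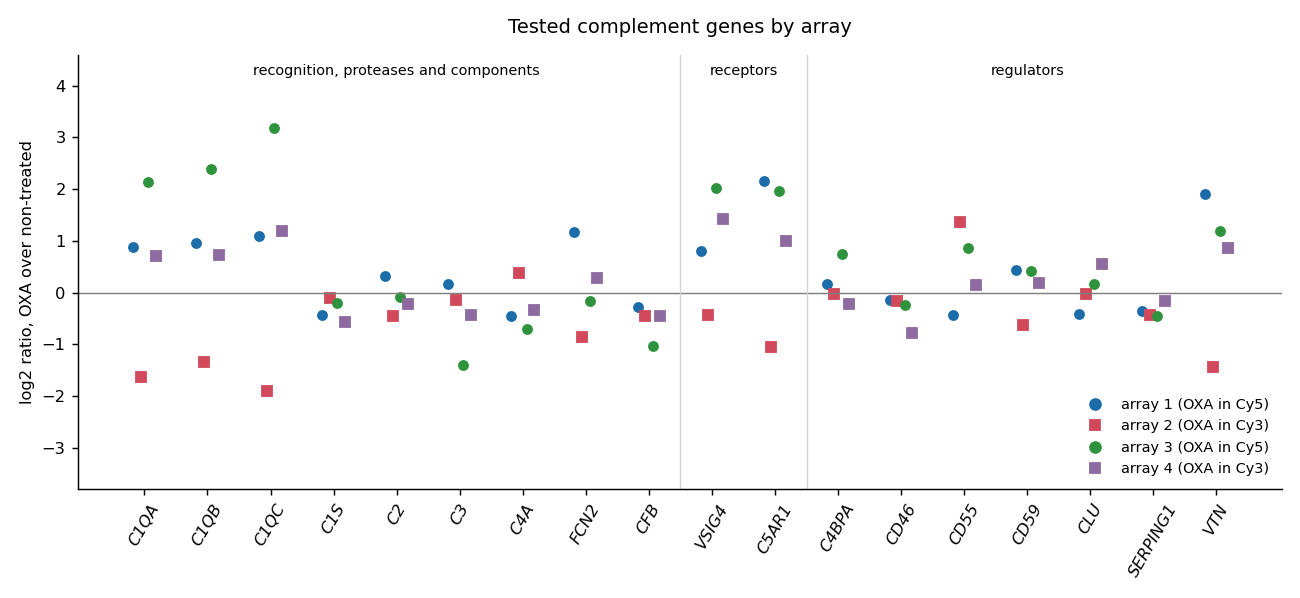
Log2 ratio of OXA over non-treated on each array for the 18 tested complement genes (brightest probe), grouped as components, receptors and regulators. C1QA, C1QB, C1QC, C5AR1, VSIG4, VTN and CD59 have array 2 (red squares) below 0 and the other arrays above 0. CD59 is named for these signs. CFB, C1S, CD46 and SERPING1 are below 0 throughout.

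CD14 works with Toll-like receptors, and of 16 genes of that signalling route 10 were tested, with 5 positive and 5 negative means and 0 calls. TLR4, the receptor that CD14 serves, had -0.17 ± 0.17 (SD, n = 4), and its 3 tested probes averaged -0.53 to -0.09. LY96, the extracellular partner MD-2 of TLR4, had 0.22 ± 0.43. TLR6 had log2 ratios of -0.39, -0.64, -0.53 and -1.10 (unadjusted p = 0.0436, adjusted p = 0.998 in limma), and TLR1 had a mean of -0.49 ± 0.28 with negative values on all 4 arrays. TLR1, TLR4 and TLR6 were the 3 of 10 tested genes negative on all 4 arrays, as were 57 of 1985 named genes. TLR1 and TLR6 each pair with TLR2 to sense lipopeptides. TRAF6, the ubiquitin ligase downstream, had 0.25 ± 0.14 (SD, n = 4) and was positive on all 4 arrays, as were 115 of 1985 named genes. RELA, an NF-kappaB subunit, had 0.15 ± 0.52 (SD, n = 4).

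Markers of other cell types moved between arrays as well. Uterine epithelium markers (5 tested) had medians of -1.15, 2.06, -0.90 and 1.87, opposite to the macrophage list on arrays 1, 2 and 3. Those medians were negative with OXA in Cy5 and positive with OXA in Cy3, so dye and array cannot be told apart for them. Their summed signals were 2447 to 10530 with OXA and 2428 to 6057 without, sums with the limits given for the macrophage list. Smooth muscle markers had -0.26, -0.14, 0.32 and -0.39, endothelial markers -0.42, -0.35, 0.06 and 0.54, and fibroblast markers -0.11, -0.58, 0.23 and -0.46. The pan-leukocyte genes ITGB2 and CD48 had medians of 0.25, -0.47, 0.64 and 0.28, and the natural killer genes NKG7 and GZMB had 0.66, -0.42, 0.59 and 0.28. Both lists of 2 genes had medians with the signs of the macrophage list, but CD48 itself was at -0.10 on array 1. The medians over all named genes (0.25, -0.22, 0.02 and 0.29) had these signs too. The part of differing cell content in the ratios of the 7 genes was not tested.

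**Figure D5:**
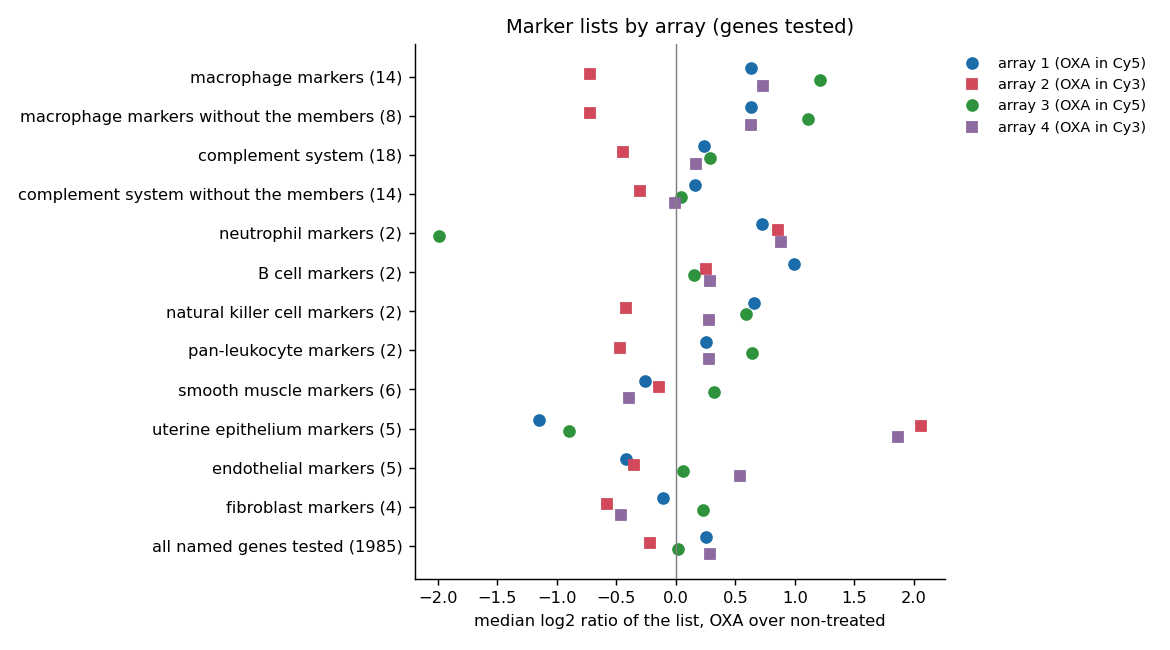
Median log2 ratio of OXA over non-treated of each marker list on each array (number of tested genes in brackets), beside all named genes. Macrophage markers lie at 0.63, 1.21 and 0.73 on arrays 1, 3 and 4 and at -0.72 on array 2, while uterine epithelium markers lie above 0 on arrays 2 and 4 and below 0 on arrays 1 and 3.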

How the data were processed

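The scanner files hold spot signal intensity on a linear scale, deposited as Agilent Feature Extraction 10.7.3.1 wrote it per the file headers, with background subtraction and dye normalization in the processed signal. The authors' scanner output also gives a log10 ratio of the dyes, used as an alternative. Ratios on the log2 scale came from the authors' deposited table, whose direction is not described. Set against each array's processed signals it had a slope of 1 on arrays 1 and 3 and -1 on arrays 2 and 4. It matched OXA over non-treated within 0.001 for 100.0% of compared probes, so it was used without centring. Its column medians were 0.10, 0.10, -0.19 and 0.07, and those over tested probes -0.046 to 0.009.

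Outlier spots (25 to 36 per array, none of the members) were left out, and no spot was saturated. Names came from matching unversioned RefSeq transcripts to a table of Sscrofa11.1 (6700 of 43603 probes). The files name no build, so no coordinates are given, and the order of genes in that table served only to find neighbours. Fits were made with limma 3.58.1 (R 4.3.3). All 4 arrays share 1 slide and 1 scan. Having 4 arrays limits the precision. The genes, lists, tests and alternatives were chosen with earlier results of these data known. The genes named were the 7 genes, up to 6 others per complement, macrophage and CD14 list with the smallest p, and the 5 nearest to C1QB and to CFB. A complement gene is not reported here. Alternatives were other background corrections, centring, filters, dye terms, directions, a separate-channel fit, the mean of a gene's probes and leaving out each array.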

Additional observations from a re-analysis of the deposited data

Results flagged for a closer look

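In 6 of 62 sets of 4 array values, a single array was set off from the rest by more than Dixon's 95% limit, which chance passes in about 5% of sets. The CD163 signal with OXA on array 2 was 6.17 on the log2 scale, against 7.69 to 7.94 elsewhere. The median of the 2 neutrophil genes, S100A8 and S100A12, was -1.99 on array 3 and 0.72 to 0.88 elsewhere. The median of CD40 and BLNK, the tested B cell genes, was 0.99 on array 1 against 0.15 to 0.29. KIT, the tested mast cell gene, was -1.27 on array 1 and -0.08 to 0.01 elsewhere.
CD46 had a log2 ratio of -0.79 on array 4 and of -0.25 to -0.15 elsewhere. The median of the 18 tested complement genes was -0.44 on array 2, against 0.17 to 0.29 on the other arrays.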

How the results depend on the processing

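Over 15 alternatives per gene, C1QB, C5AR1, VSIG4, AIF1 and CFB kept their sign in all, CD14 in 13 and CD163 in 11. Several alternatives could not change the fitted ratio, so these counts do not measure robustness. The scanner ratio, both changes of filter, the fit without a dye term and the separate-channel fit returned the value of the main fit. So did the mean of a gene's tested probes where only 1 was tested. CD163 turned negative with loess on median signals without background subtraction (-0.00142) and with array 2 turned (-0.12). Leaving out 1 array gave 0.16 to 1.20 for C1QB, 0.51 to 1.53 for C5AR1, 0.49 to 1.42 for VSIG4, 0.27 to 0.92 for AIF1, -0.34 to 0.47 for CD14, -0.33 to 0.59 for CD163 and -0.75 to -0.37 for CFB. The probes called were 1, 5 and 6 without arrays 1, 3 and 4 and 1108 without array 2, and 0 in every alternative that kept all arrays. In a fit without 1 array the spread has 1 residual degree of freedom. The dye term was kept, so the array left alone in its dye orientation weighed as much as both others together. The ratios from these fits are therefore not plain means over the arrays kept. The cause of the difference between arrays was not tested. A slide block was not run, since all arrays share 1 slide. Every ratio sets the channels of an array against each other, so the fits are paired by array already. Dim probes limit VSIG4, CD163, CD14 and C5AR1, of whose 13 probes 5 were not tested.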
